A study of Mus musculus with 87 samples.

Results

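The genes described here encode the 3 families of enzymes that attach a large polar group to drugs, bile pigments, hormones and lipid products in the liver. The UDP-glucuronosyltransferases (Ugt) add glucuronic acid, the cytosolic sulfotransferases (Sult) add sulfate, and the cytosolic glutathione transferases (Gst) add glutathione. UDP-glucuronic acid, the sulfate carrier PAPS and glutathione are the respective donors, and the conjugates leave the cell for bile or blood. Members were taken as protein-coding rows of the deposited table whose names begin with Ugt1 to Ugt3, with Sult and a digit, or with Gst and one of the class letters a, k, m, o, p, t or z and a digit. Of 59 such rows, 46 had a log2 RPKM (read number scaled to exon length and to library depth) above −1.5 in 1 or more libraries, and these 46 were selected on that level from the 15396 genes that passed it among the 37991 rows of the table. They comprised 16 of 20 Ugt, 10 of 17 Sult and 20 of 22 Gst genes, the last with Gstm2-ps1, named as a pseudogene and typed as coding in the table. Ugt1a10 (highest value −1.36) and Sult2a5 (−1.40) lay just inside the level, and Ugt1a2 (−1.65) and Gsto2 (−2.08) just outside it. The other 11 genes below it were Gstt4, Sult1c1, Sult2a3, Sult2a4, Sult2a6, Sult2b1, Sult3a1, Sult6b1, Ugt1a7c, Ugt1a8 and Ugt2a1, of which Sult1c1 and Sult2a3 were listed at 0 in all 80 libraries.

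The libraries were made from poly(A) RNA of individual livers of male C57/BL6 mice aged 12 to 14 weeks, trained to a light-dark cycle with food offered in the dark phase. Livers were taken without surgery (C0, n = 9; C4, n = 3; C4W, n = 2), after sham surgery, in which the abdomen was opened and the liver left whole (S1, n = 6; S4, n = 5; S10, S20 and S48, n = 3 each), or after partial hepatectomy (PH), in which about 2 of 3 parts of the liver were removed (X1, X10, X20 and X36, n = 6; X48, n = 5; X4, X28, X44, X72 and X1W, n = 3; X4W, n = 2). The number gives the hours after surgery, and W marks weeks. Surgery was done 2 h after lights on (ZT2), so that S48, X48, X72 and X1W are set against C0 at the same hour, and S4, X4 and X28 against C4 at ZT6, while C4W is the unoperated match of X4W. All C4 livers came from 1 of the 3 periods in which the experiment was run, so that period and group cannot be told apart in comparisons with C4. Livers of S1, S4, X1, X10, X20 and X36 came from 2 of these periods and those of S10 and S20 from 1. X10 and X20 thus hold a period that their sham groups do not. C0 livers came from all 3 periods and those of S48, X48, X72 and X1W from 1, so that period and group are partly mixed in these comparisons with C0. Of 6 labelled X4 livers from 2 periods, 3 were used. Which replicate belongs to which period is not given in the sources used here. Of 11 hepatocyte markers, 10 exceeded 103 RPKM in every library, among them Alb, the gene of serum albumin (16060 to 48180 RPKM), while G6pc ran from 5.31 to 631 RPKM. In the lists for intestine and pancreas, Sis, Cdx1 and Prss1 were listed at 0 in every library, but Apoa4 (36.3 to 3763 RPKM), Fabp2 (26.3 to 145 RPKM) and Cela1 (2.77 to 29.2 RPKM) were not. Estimated depth lay between 12500000 and 46600000 reads per library with a median of 26200000 reads, at which the level of −1.5 stands for 18.6 reads on 2 kb of exon. In bulk liver, fewer cells of a type and less RNA per cell cannot be told apart.

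Most members lie in gene clusters (assembly mm9). The 6 Ugt1a members share one locus on chromosome 1 (89951963 to 90116577), where each has its own first exon and all splice to common downstream exons. The Ugt2 members form a row of 8 on chromosome 5 (87318792 to 87853228), and Sult1b1, Sult1d1 and Sult1e1 follow on the same chromosome (87942364 to 88020636). Gstm1 to Gstm7 lie on chromosome 3 (107698739 to 107847812), Gsta1, Gsta2 and Gsta4 on chromosome 9 (78039773 to 78203595), Gstt1, Gstt2 and Gstt3 on chromosome 10 (75236860 to 75297626), and Gstp1 and Gstp2 side by side on chromosome 19 (4035411 to 4042221). Because of this kinship, 100-base stretches of the members' transcripts were searched for in the transcripts of other protein-coding genes. Of the 46, 24 shared none and 16 shared over 5% of theirs. Ugt1a genes shared between 52.3% (Ugt1a10) and 85.1% (Ugt1a6b), Gsta1 81.8% (with Gm3776, Gsta2 and Gm10639), Gsta2 24.8%, Gstp1 57.3% and Gstp2 57.7% (with each other), and Sult2a2 35.9%. Reads of such pairs may be split between genes in the deposited values, and their single-gene levels are uncertain to that extent. The genes on which the 48 h comparison turns were largely free of this, at 0% for Gstm2, Sult1a1, Sult1e1, Gsta3, Ugt2b1, Ugt2b35, Gstt2 and Gsto1 and 3.55% for Gstm3, except for Ugt1a5 at 63.1%.

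The promoters of 5 members with large changes at 48 or 72 h after PH are given as examples, from RefSeq on GRCm38.p6, a different assembly from that of the deposited values. Each runs from 250 bases before to 50 bases after an annotated start, on the strand of the gene. Capitals mark matches on either strand to the core TGACNNNGC of the antioxidant response element or to the core GCGTG of the xenobiotic response element. Gsta3 was called lower at 48 h against sham, Gstm2, Gstm3 and Sult1e1 were called higher at 48 h against sham and at 72 h against unoperated C0 livers, and Gsta1 was called higher at 72 h against C0.
Gsta3, chr1:21240335-21240634, plus strand: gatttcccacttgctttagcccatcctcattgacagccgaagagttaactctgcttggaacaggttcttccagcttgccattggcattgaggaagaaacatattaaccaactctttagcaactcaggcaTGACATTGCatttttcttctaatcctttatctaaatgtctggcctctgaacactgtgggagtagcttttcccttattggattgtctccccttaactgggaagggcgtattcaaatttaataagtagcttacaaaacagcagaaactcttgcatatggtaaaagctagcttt
Gsta1, chr9:78230419-78230718, plus strand: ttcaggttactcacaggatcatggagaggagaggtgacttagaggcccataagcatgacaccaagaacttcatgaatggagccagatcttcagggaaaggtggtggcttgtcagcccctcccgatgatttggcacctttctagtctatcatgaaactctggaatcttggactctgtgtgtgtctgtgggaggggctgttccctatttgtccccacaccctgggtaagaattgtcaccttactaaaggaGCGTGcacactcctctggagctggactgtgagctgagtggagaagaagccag
Gstm2, chr3:107986371-107986670, minus strand: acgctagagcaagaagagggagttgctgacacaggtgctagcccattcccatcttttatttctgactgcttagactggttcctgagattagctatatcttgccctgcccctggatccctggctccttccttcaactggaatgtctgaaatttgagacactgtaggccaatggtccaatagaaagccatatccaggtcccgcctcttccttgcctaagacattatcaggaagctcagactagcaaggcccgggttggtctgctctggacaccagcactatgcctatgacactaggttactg
Gstm3, chr3:107969125-107969424, minus strand: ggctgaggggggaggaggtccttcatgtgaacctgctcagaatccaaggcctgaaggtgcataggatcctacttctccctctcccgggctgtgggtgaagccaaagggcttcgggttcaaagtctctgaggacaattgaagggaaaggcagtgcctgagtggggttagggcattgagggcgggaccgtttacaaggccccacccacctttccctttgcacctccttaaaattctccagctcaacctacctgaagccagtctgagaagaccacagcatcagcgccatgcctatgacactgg
Sult1e1, chr5:87591562-87591861, minus strand: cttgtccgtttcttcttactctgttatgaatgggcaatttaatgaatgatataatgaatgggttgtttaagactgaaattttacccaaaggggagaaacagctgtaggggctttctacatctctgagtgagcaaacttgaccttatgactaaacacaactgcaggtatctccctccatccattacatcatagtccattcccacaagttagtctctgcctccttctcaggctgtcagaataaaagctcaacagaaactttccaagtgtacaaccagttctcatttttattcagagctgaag

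In the table of promoters, 38 of the 46 members were found. The antioxidant core was present in windows of 3 of them (Gsta3, Gstm5 and Gstm7), against 14.0% of all genes and 12.4% of all windows, and the xenobiotic core in windows of 8 of them, against 35.2% of all genes and 32.4% of all windows. The windows of Gstm2 and Gstm3, neighbours that rose together at 48 h, held neither and were 54.1% identical in a global alignment, against 76.6% for Gsta1 and Gsta2. Windows of members of different classes reached similar values, with 55.7% for Gsta1 and Gstm2 and 50.9% for Gstm3 and Sult1e1. These matches are a description of the letters only.

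In resting liver at C0, transcripts of the Gst family were the most abundant per length. The summed RPKM of the 20 Gst genes was 5589 ± 553 (SD, n = 9), that of the 16 Ugt genes 1409 ± 229, and that of the 10 Sult genes 240.4 ± 44.3. Within Gst, the pi class led with Gstp1, whose C0 values ran from 1416 to 2154 RPKM, followed by Gstm1 (714 to 1400 RPKM) and Gsta3 (839 to 1198 RPKM). Ranges of Gstm1 and Gsta3 overlapped, so that their order was within the spread between livers. Gstz1, an enzyme of tyrosine breakdown, had a mean log2 RPKM of 8.26, Gstt1 of 6.93, the mitochondrial and peroxisomal Gstk1 of 6.44 and Gsto1 of 5.23. Among Ugt genes, Ugt2b5 led at 8.63, Ugt2a3 stood at 6.72, Ugt3a2 at 6.57, and Ugt1a1, which conjugates bilirubin, at 5.45. Sult1a1, a phenol sulfotransferase, led its family at 153 to 228 RPKM, and the mean log2 RPKM of Sult5a1 was 1.95. Transcripts of the hydroxysteroid sulfotransferases Sult2a1 and Sult2a5 were listed at 0 in all 9 C0 libraries, Sult2a2 was at most 0.0811 RPKM, and Sult4a1, known from brain, had at most 5.73 estimated reads per C0 library.

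The summed levels of the 3 families took different courses over the groups. X10, X20 and X44 were taken at other hours of the day than C0, and X28 at the hour of C4, so that surgery and hour cannot be told apart in their distance from C0. In the group means, the summed Gst level stood at 5338 ± 699 RPKM (SD, n = 6) in X1, 2423 ± 323 (n = 6) in X10, 2663 ± 380 (n = 6) in X20, 3386 ± 1077 (n = 5) in X48 and 5195 ± 395 (n = 3) in X72. The Ugt sum was lowest in X10, at 656.6 ± 101 RPKM, and stood at 1479 ± 68.5 in X1W. The Sult sum was higher than in C0, with 461.9 ± 66.2 RPKM in X10, 636.6 ± 90.1 in X28 and 627.2 ± 76.4 in X44, and 270.3 ± 43.8 in X1W. Most of it was Sult1a1, with means of 182.9 RPKM in C0, 430.2 in X10, 590.8 in X28 and 583.0 in X44. Means of the other sulfotransferases with reads in every library were lower in X10 than in C0, at 3.65 against 9.92 RPKM for Sult1b1, 0.108 against 1.74 for Sult1c2, 23.6 against 41.5 for Sult1d1 and 2.55 against 4.18 for Sult5a1. Libraries of X10 (364.3 to 558.5 RPKM) all lay above the highest C0 library (303.2 RPKM) in the Sult sum, and all below the lowest C0 library in the Gst sum (1955 to 2936 against 4714 RPKM) and in the Ugt sum (565.8 to 795.9 against 1052 RPKM). Sham livers moved too, with Gst sums of 2969 ± 296 RPKM in S10 and 3207 ± 264 in S48 and Sult sums of 346.7 ± 37.2 in S10 and 273.5 ± 51.7 in S48.

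**Figure D1:**
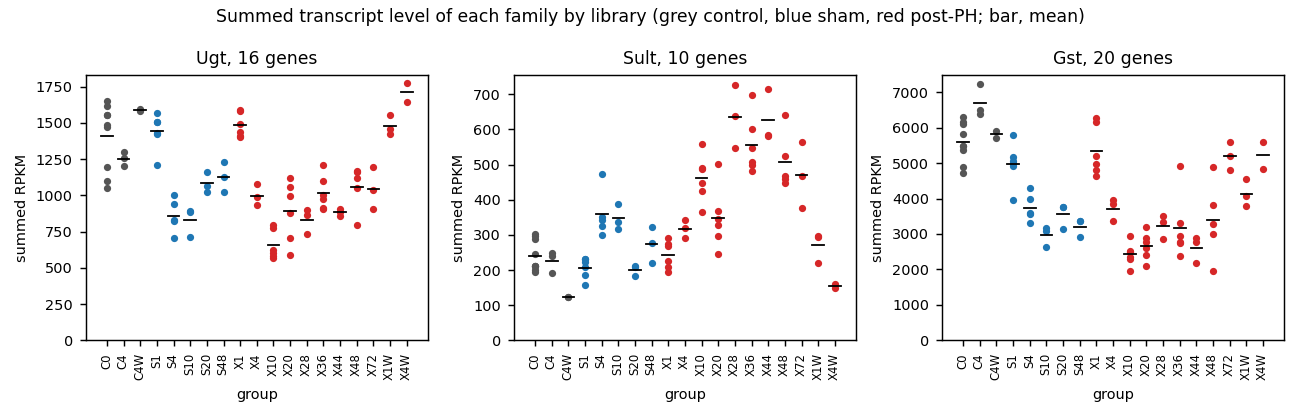
Summed RPKM (vertical axis) of the 16 Ugt, 10 Sult and 20 Gst genes in each library (points) by group (horizontal axis), with the group mean as a bar. X10 libraries lie below every C0 library for Ugt and Gst, and above every C0 library for Sult.

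Of the 41 members with reads in every library, 15 had their lowest group mean in X10, 6 in X20 and 5 in X44. The highest mean lay in X72 for 7, in X4W for 8, in C4W for 6 and in C4 for 10. The shares over all genes were not counted, and X44, X72, X4W, C4W and C4 hold only 2 or 3 livers each. The span between the highest and lowest group mean was narrow for Gstz1 (0.67 on the log2 scale), Gstm5 (1.04) and Ugt3a2 (1.08). It was wide for Gsta1 (7.95), Gsta2 (5.03), Sult1c2 (4.78) and Gstm3 (3.53). Gsta1 had its lowest mean in X20 and its highest in X72.

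**Figure D2:**
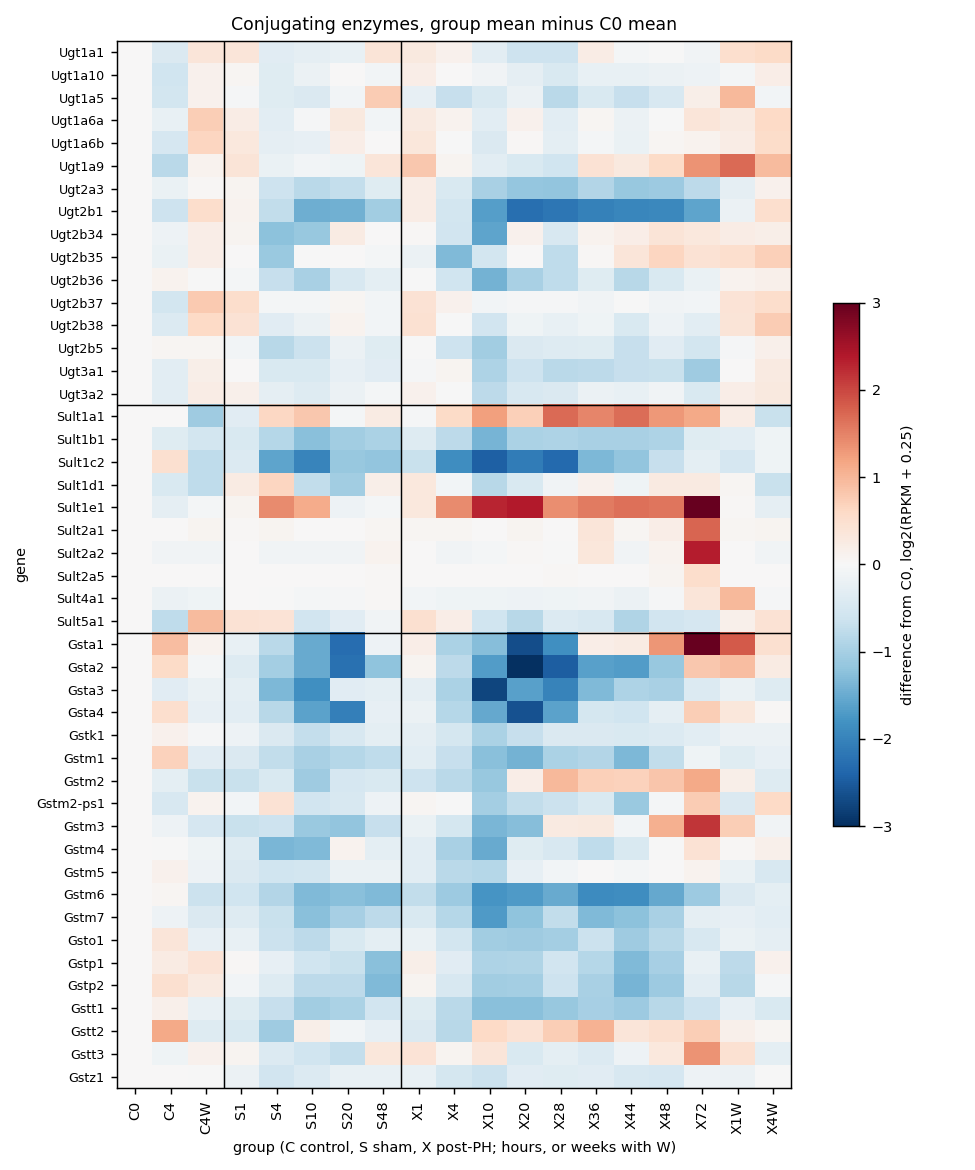
Difference of each group's mean from the C0 mean, on log2(RPKM + 0.25) and cut at 3 in either direction, for the 46 members (rows) in 19 groups (columns). Ugt2b1, Gstm6 and most other Gst rows are blue (below C0) from X10 to X48, Sult1a1 and Sult1e1 are red (above C0) there, and Gsta1, Gstm3, Sult1e1 and Sult2a2 have their deepest red in X72.

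Post-PH and sham livers were compared at each time to separate the effect of removing liver from that of surgery. All changes below are log2 fold changes on log2(RPKM + 0.25) with their SE, which understates the changes of genes at low levels, from a limma fit of the 15396 genes. Calls needed a change of over 0.5 in size and a Benjamini-Hochberg adjusted p under 0.05. At 1 h, 0 of the 46 members were called by limma in either direction, where 0.624% of all genes were called higher and 0.0260% lower. At an unadjusted p below 0.05, 1 member was higher and 0 were lower.

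At 4 h, 1 member was called higher (3.16% of all genes) and 1 lower (5.48%). Ugt2b34 stood at 67.7, 72.4 and 56.6 RPKM in X4 against 34.4, 36.5, 39.8, 46.0 and 52.8 in S4, a change of 0.65 ± 0.18 (adjusted p = 0.00621). Sult1d1, which acts on catecholamines, stood at 25.2, 55.2 and 36.0 RPKM against 57.3 to 65.6 in S4, a change of −0.74 ± 0.26 (adjusted p = 0.0398), and was not called with libraries scaled to the same median. In neither gene did the X4 and S4 libraries overlap. The Ugt2b34 call was lost without X4 replicate 5 (0.58, adjusted p = 0.0562), and that of Sult1d1 without X4 replicate 4 (−0.47, adjusted p = 0.349), X4 replicate 6 or S4 replicate 1, 2 or 3. Under that scaling 2 members were called higher and 0 lower by limma, with 48.2% of all called genes higher in place of 36.5%.

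At 10 h, again 1 member was called higher (3.40% of all genes) and 1 lower (3.62%). Gsta3, an alpha-class transferase of hepatocytes, stood at 126, 130, 166, 206, 129 and 146 RPKM in X10, every one below the 278, 287 and 266 of S10, a change of −0.90 ± 0.18 (adjusted p = 4.52e-04). Both groups were below the C0 range of 839 to 1198 RPKM. Gstt3 rose by 0.96 ± 0.30 (adjusted p = 0.0243), from 8.21, 6.25 and 4.196 RPKM in S10 to between 8.74 and 15.4 in X10. This call was lost without S10 replicate 2 or 3 or X10 replicate 1, with changes of 0.99, 0.71 and 0.89. The median change of the 46 was −0.21, against 0.00 over all genes, and 36 lay below 0. Of the markers, 1 of 8 stellate, 2 of 11 hepatocyte and 1 of 2 intestine genes were called higher in X10 than in S10, with summed stellate levels of 48.5 to 61.6 RPKM in X10 and 31.5 to 47.0 in S10, and their part was not tested.

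At 20 h, 2 members were called higher (4.49% of all genes) and 4 lower (2.61%). With libraries scaled to the same median 2 were higher and 6 lower, with 42.1% of all called genes higher in place of 63.3%. Gsta3 in X20 stood at 322, 388, 473, 339, 286 and 200 RPKM against 752, 819 and 781 in S20, and S20 lay just below the C0 range. The change was −1.27 ± 0.18 (adjusted p = 2.50e-06). Gsto1, an omega-class transferase, fell by 0.62 ± 0.13 (adjusted p = 5.72e-04), with 16.7 to 19.1 RPKM in X20 below the 22.8, 31.1 and 29.4 of S20. Ugt2b1 fell by 0.83 ± 0.24 (adjusted p = 0.0145), though its X20 values (21.6 to 74.2 RPKM) reached into those of S20 (70.5, 93.2 and 96.5), and the call was lost without X20 replicate 6, which held the value of 21.6 (−0.60, adjusted p = 0.0684), and without S20 replicate 1 (−0.77) or 2 (−0.75). Sult1c2, outside the rule for naming because of its level, fell by 0.95 ± 0.29 (adjusted p = 0.0218), between 0.0890 and 0.344 RPKM in X20 against 0.494 to 0.942 in S20, and its call was lost without S20 replicate 1 (−1.05) or 2 (−0.73) or X20 replicate 6 (−0.86), and with X20 replicates 1 to 4 alone (−0.74, adjusted p = 0.112).

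Both members that rose at 20 h were sulfotransferases. Sult1a1 stood at 471, 291, 330, 297, 211 and 251 RPKM in X20 and at 184, 177 and 158 in S20, without overlap (0.79 ± 0.18, adjusted p = 0.00197). Sult1e1, the estrogen sulfotransferase, stood at 0.336, 0.955, 0.227, 3.13, 1.47 and 9.91 RPKM in X20 against 0.115 in S20 replicate 2 and 0 in the other S20 libraries (2.54 ± 0.58, adjusted p = 0.00208). The size of this change rests on the pseudocount, since S20 libraries held at most 2.94 estimated reads of Sult1e1, and it was 4.14 with a pseudocount of 0.05 and 1.36 with one of 1. With X20 and S20 fitted alone, Sult1a1 (adjusted p = 0.0638) and Sult1e1 (adjusted p = 0.119) were no longer called. X20 replicates 5 and 6 stood low in several Gst genes (Gsta2 at 0.603 and 0.0611 RPKM, against 1.66 to 4.03 in the other X20 libraries), and with X20 replicates 1 to 4 alone Gsta3 still fell by 1.06 and Sult1a1 rose by 0.98, while Ugt2b1 did not pass (−0.51, adjusted p = 0.138). Beside these changes, 2 of 8 stellate cell markers (summed level 61.9 to 84.7 RPKM in X20 and 36.5 to 61.1 in S20) and 3 of 11 hepatocyte markers were called higher and 1 erythroid marker lower, and their part in the members' changes was not tested.

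At 48 h, 6 members were called higher and 5 lower, beside 24.5% of all genes higher and 2.69% lower. All genes together had shifted, with a median log2 fold change of 0.27, against 0.02 for the 46, and 36 members lay below the median of all genes. When libraries were scaled to the same median, 3 members were called higher and 16 lower, with 30.7% of all called genes higher in place of 90.1%. The named falls grew under that scaling and the calls of Gstt2 (0.28), Ugt2b35 (0.25) and Sult1e1 (1.22, adjusted p = 0.112) were lost. X48 and S48 came from the same period of the experiment.

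Among called members with mean levels above 1 RPKM in both groups, the mu-class transferases Gstm3 and Gstm2 had the largest rises. Gstm3 stood at 72.5, 242, 116, 327 and 155 RPKM in X48 and at 29.1, 37.3 and 91.9 in S48. The groups overlapped only through X48 replicate 1 and S48 replicate 3, and the change was 1.78 ± 0.50 (adjusted p = 0.00277), or 3.43-fold. Gstm2 stood at 75.6, 83.9, 82.5, 113 and 78.6 RPKM against 28.4, 30.7 and 49.1, without overlap (1.29 ± 0.31, adjusted p = 4.72e-04, 2.44-fold). The theta-class Gstt2 stood at 23.7, 34.1, 29.6, 32.1 and 24.7 RPKM against 14.2, 15.4 and 22.9 (0.73 ± 0.24, adjusted p = 0.00925). Without S48 replicate 1 this call was lost (0.60, adjusted p = 0.0800).

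Sult1a1 stood at 584, 392, 397, 413 and 467 RPKM in X48 against 170, 219 and 271 in S48 (1.04 ± 0.19, adjusted p = 4.91e-06), a 2.06-fold rise without overlap. Sult1e1 stood at 1.48, 0.300, 0.624, 0.839 and 0.648 RPKM in X48 against 0.0922, 0.0364 and 0.0328 in S48, which held at most 3.82 estimated reads per library (1.66 ± 0.60, adjusted p = 0.0193). That call was lost without X48 replicate 1 (1.45), S48 replicate 2 (1.62) or S48 replicate 3 (1.61), with a pseudocount of 1 (0.72) and without the filter on low values (adjusted p = 0.0524). Ugt2b35 was the only Ugt gene called higher, with 51.0, 99.7, 97.6, 104 and 88.7 RPKM against 58.1, 43.2 and 58.1 (0.70 ± 0.21, adjusted p = 0.00465). X48 replicate 1 alone lay within the sham range, and the call was lost without S48 replicate 2 (0.56, adjusted p = 0.0542).

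The 5 falls at 48 h comprised 3 Ugt and 2 Gst genes. Gsta3 stood at 376, 612, 605, 591 and 393 RPKM against 824, 782 and 824 in S48 (−0.69 ± 0.19, adjusted p = 0.00234). Gsto1 stood at 15.7, 22.9, 23.5, 24.8 and 19.5 RPKM against 28.7, 37.0 and 27.2 (−0.54 ± 0.13, adjusted p = 4.70e-04). Its change passed under 0.5 without S48 replicate 2 (−0.41) or X48 replicate 1 (−0.44). Ugt2a3 stood at 40.3, 55.0, 58.5, 55.0 and 40.1 RPKM against 90.2, 72.3 and 84.4 (−0.74 ± 0.18, adjusted p = 5.60e-04).

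Ugt2b1 stood at 39.6, 69.8, 65.8, 81.0 and 54.2 RPKM in X48 against 180, 81.6 and 95.4 in S48 (−0.89 ± 0.25, adjusted p = 0.00253). The high value of S48 replicate 1 carried part of this, and without it the change was −0.55 (adjusted p = 0.114). Ugt1a5 stood at 5.93, 5.63, 5.04, 4.08 and 4.24 RPKM against 10.5, 9.91 and 16.4 (−1.24 ± 0.42, adjusted p = 0.0128). It was not called without S48 replicate 3 (−1.01, adjusted p = 0.0881), and the exons it shares with its neighbours limit what can be assigned to it. The other 35 members did not pass, among them Gsta1 (1.48 ± 0.67, adjusted p = 0.0649), whose X48 libraries ran from 0.608 to 39.3 RPKM.

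**Figure D3:**
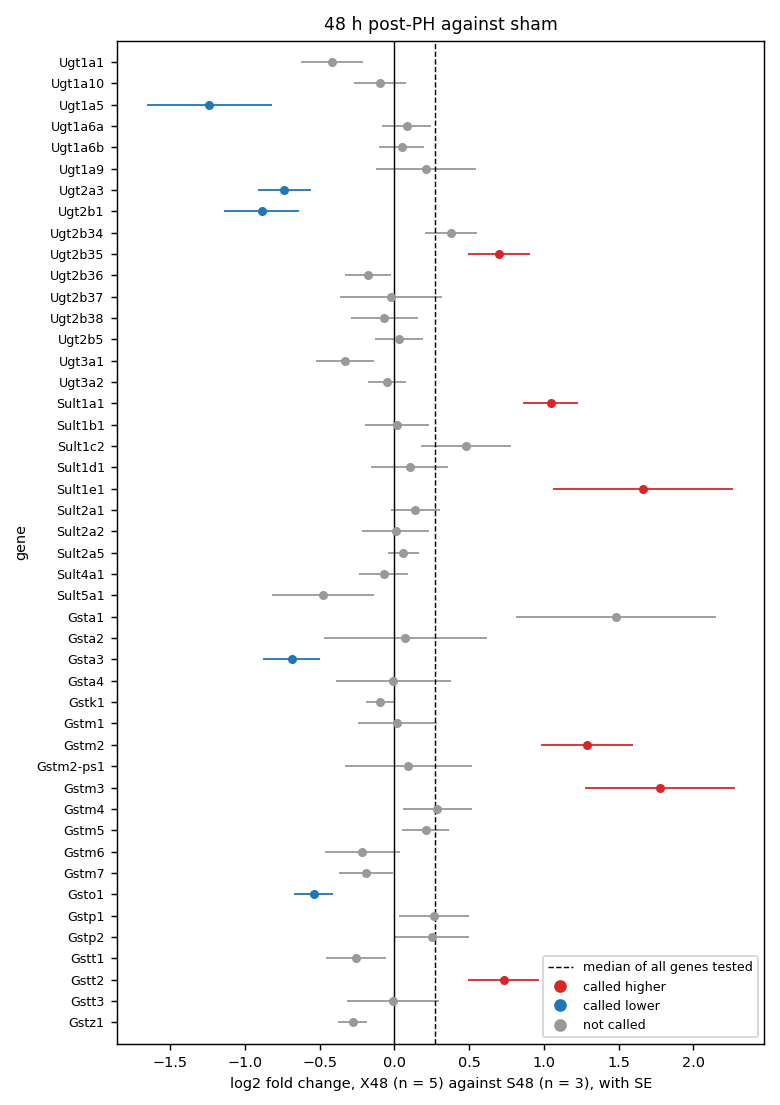
Log2 fold change with SE of each of the 46 members (rows) in X48 (n = 5) against S48 (n = 3), on log2(RPKM + 0.25). The dashed line is the median of all genes tested (0.27), red and blue points are genes called higher or lower, and Gstm3 has the largest positive and Ugt1a5 the largest negative value.

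Beside these changes, 5 of 8 stellate cell markers were called higher in X48 than in S48 (summed level 66.2 to 116.8 RPKM in X48 and 52.9 to 56.4 in S48, with none of the 8 at 0), and 3 of 11 hepatocyte markers were called lower (37310 to 42790 against 42150 to 51950 RPKM). Among the other marker lists, 1 of 6 cholangiocyte markers (31.9 to 44.5 against 19.8 to 29.7 RPKM) and 1 of 7 neutrophil markers were higher, both intestine markers tested (Fabp2 and Apoa4, summed list level 836 to 2145 against 231.1 to 437.9 RPKM) were higher, 1 endothelial and 1 erythroid marker were lower, and 0 of 8 macrophage and 0 of 6 B and T cell markers were called by limma. The other intestine markers listed did not pass the level, with at most 0.1345 RPKM (Vil1) in any library. The part of other cells in the members' changes was not tested.

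Whether the difference between PH and sham changed from 20 h to 48 h was tested as such. One member, Sult1c2, passed in the higher direction (12.5% of all genes) and 0 in the lower (0.650%). After the deficit at 20 h, its level in X48 (0.614 to 1.89 RPKM) overlapped that in S48 (0.519 to 0.770) and reached above it. The difference of differences was 1.43 ± 0.42 (limma adjusted p = 0.0127). This was lost without S20 replicate 2 (1.21, adjusted p = 0.0589), under scaling to the same median (1.06, adjusted p = 0.0673) and with X20 replicates 1 to 4 alone (1.22, adjusted p = 0.0550). For Gstm3 (1.87 ± 0.70, adjusted p = 0.0577) and Gstm2 (0.59 ± 0.43, adjusted p = 0.378), called at 48 h and not at 20 h, the times were not shown to differ. The count rested on single libraries, with 6 members passing without X48 replicate 1, among them Gstm3, Gsta1 and Gsta2, and 3 without S48 replicate 3. Without X20 replicate 1 or replicate 3, Gstm3 passed as well as Sult1c2, giving 2. With libraries scaled to the same median, 1 member passed in the lower direction, Gstz1 (−0.52), with 42.2% of all called genes higher in place of 95.1%.

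At 72 h there was no sham group, and X72 was compared with C0. Of the 46, 11 were called higher and 6 lower, where 26.6% of all genes were higher and 6.59% lower, and the median change of all genes was 0.21. Among the 11, Sult2a1, Sult2a2 and Sult2a5, passed the level of −1.5 almost only through X72, and without them 8 of 43 were higher. With libraries scaled to the same median the calls were 9 higher and 19 lower, with 35.7% of all called genes higher in place of 80.1%. Among members with mean levels above 1 RPKM in both groups, Gsta1 moved furthest (4.28 ± 0.61, limma adjusted p = 2.25e-08). It stood at 94.2, 54.5 and 86.5 RPKM in X72 against a C0 range of 1.76 to 6.39 and median of 3.84 RPKM. As 81.8% of its stretches are shared with other genes, its own level is uncertain to that extent. In X48 the same gene ranged from 0.608 to 39.3 RPKM and in X1W from 5.47 to 23.1 RPKM. Gstm3 stood at 334, 207 and 552 RPKM against 42.6 to 113 in C0 (2.15 ± 0.46, adjusted p = 6.21e-05), and Gstm2 at 117, 93.6 and 111 RPKM against 30.6 to 70.8 (1.15 ± 0.28, adjusted p = 4.62e-04).

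Of the sulfotransferases, Sult1a1 and Sult1e1 were called higher beside the 3 Sult2a genes, while Sult1b1 (mean 7.59 RPKM in X72 and 9.92 in C0), Sult5a1 (2.66 and 4.18) and Sult1c2 (1.47 and 1.74) were not called. Sult1a1 stood at 476, 315 and 411 RPKM against 153 to 228 in C0 (1.13 ± 0.17, adjusted p = 8.73e-08). Sult1e1 stood at 21.0, 1.36 and 0.765 RPKM, all above the C0 maximum of 0.160, and replicate 1 exceeded the other X72 livers widely (3.37 ± 0.55, adjusted p = 4.60e-07). Sult2a2 stood at 3.35, 0.825 and 0.407 RPKM, Sult2a1 at 1.52, 0.341 and 0.327, and Sult2a5 at 0.379, 0.0201 and 0.0297, with replicate 1 again the highest in each. All 3 passed the level through X72 libraries, Sult2a2 also through X36 replicate 2, so that their calls in this comparison follow from how they were selected, and no fold is given against C0 libraries with at most 1.91 estimated reads.

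Ugt1a9 stood at 24.6, 26.0 and 39.1 RPKM in X72, above the C0 maximum of 24.0 (1.35 ± 0.30, adjusted p = 1.35e-04). Its C0 values were 12.4 to 24.0 RPKM in replicates 1 to 6 and 5.17 or less in replicates 7 to 9, and against C0 replicates 1 to 3 alone the change was 0.58 and did not pass (adjusted p = 0.0794). Gstt3 rose by 1.35 ± 0.28 and Gstt2 by 0.74 ± 0.22, both overlapping C0, and Gstt2 was not called without X72 replicate 3 (0.59, adjusted p = 0.0540). The falls were those of Ugt2b1 (52.8, 96.6 and 91.6 RPKM against 150 to 315, a change of −1.58 ± 0.23), Gstm6 (−1.09 ± 0.23), Ugt3a1 (−1.08 ± 0.18), Ugt2a3 (−0.78 ± 0.16), Gstt1 (−0.61 ± 0.19) and Ugt2b5 (−0.56 ± 0.15). Gsta3, at 565, 768 and 982 RPKM, did not pass. In X72, 4 of 7 neutrophil markers (summed level 3.63 to 31.8 RPKM, and 0.356 to 52.1 in C0), 3 of 8 stellate cell markers (74.8 to 98.8, and 55.7 to 91.6), 2 of 8 macrophage markers (34.4 to 73.3, and 9.71 to 152.9) and 1 of 2 intestine markers (815.4 to 873.3, and 97.2 to 186.8) were called higher than in C0. B and T cell markers (4 of 6, at 0.341 to 0.988 RPKM in X72 and 1.30 to 4.19 in C0) and 5 of 11 hepatocyte markers were called lower and 2 hepatocyte markers higher, and the part of other cells was not tested.

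**Figure D4:**
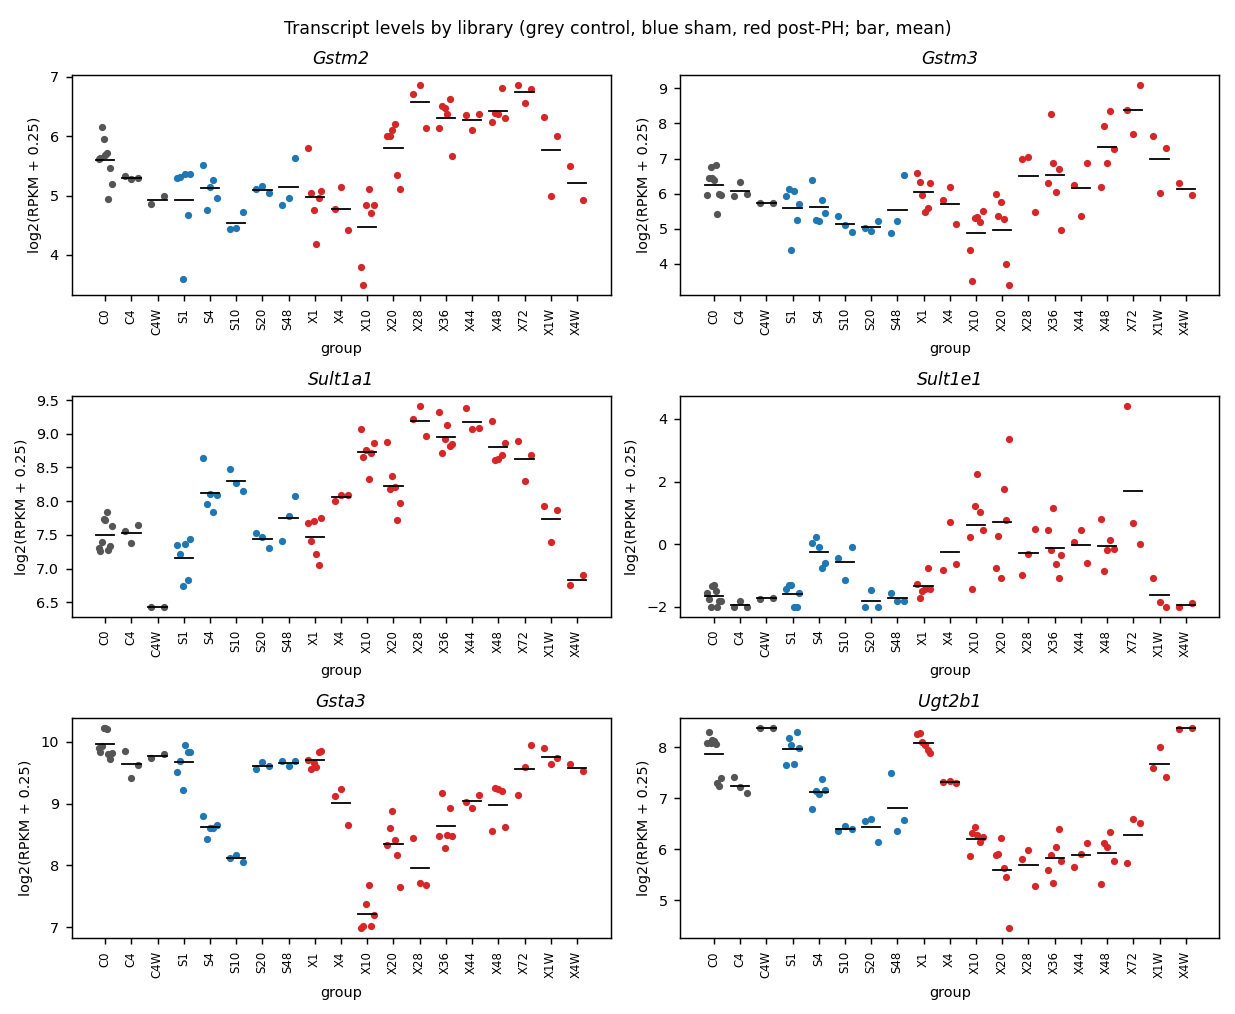
Levels of 6 members, as log2(RPKM + 0.25) on the vertical axis, in every library (points) of 19 groups (horizontal axis), with group means as bars. Mean Gsta3 is low in S10 and X10 and higher in S20 than in X20, and from X10 to X72 the means of Ugt2b1 lie below and those of Sult1a1 above their C0 means.

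X48 and S48 were each also compared with C0, and as these comparisons share the C0 libraries, only their own values are given. In S48, 0 members were called higher by limma (3.83% of all genes, and 1 member at an unadjusted p below 0.05) and 9 lower (5.05%), but against C0 replicates 7 to 9 alone 6 were higher and 8 lower. The largest falls in S48 were Gstm6 (−1.33 ± 0.23), Gstp2 (−1.33 ± 0.23), Gstp1 (−1.26 ± 0.21) and Sult1c2 (−1.17 ± 0.28). Gstp1 stood at 962, 558 and 641 RPKM in S48 and at 428 to 1489 in X48. In X48, 7 members were called higher (30.4% of all genes) and 16 lower (7.66%), and the median change over all genes was 0.24. With libraries scaled to the same median 2 were called higher and 24 lower, with 27.5% of all called genes higher in place of 79.9%. Against C0 replicates 7 to 9 alone, 13 were higher and 12 lower in X48, and against replicates 1 to 6, 4 and 21. Ugt2b1 (−1.94 ± 0.19), Gstm6 (−1.55 ± 0.19), Gsta2 (−1.13 ± 0.41) and Ugt2a3 (−1.09 ± 0.14) had the largest falls in X48, and Gsta1 (1.32 ± 0.51), Sult1a1 (1.30 ± 0.14), Gstm3 (1.08 ± 0.38) and Gstm2 (0.83 ± 0.24) the largest rises at levels above 1 RPKM. The rise of Gsta1 was not called without X48 replicate 2 (0.98) or replicate 4 (0.82), that of Gstm3 not without X48 replicate 4 (0.82, adjusted p = 0.0781), and the fall of Gsta2 not without X48 replicate 1 (−0.54). Among the markers, 3 of 8 macrophage genes were higher and 2 of 8 stellate genes lower in S48 than in C0, and 3 of 8 stellate genes were higher and 4 of 6 B and T cell and 4 of 11 hepatocyte genes lower in X48, and their part was not tested.

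At 1 week, 4 members were called higher than in C0 (12.4% of all genes) and 2 lower (4.48%). With libraries scaled to the same median 3 were higher and 5 lower, with 32.3% of all called genes higher in place of 73.5%. One of the 4, Sult4a1, passed the level of −1.5 through X1W libraries alone, so that its call follows from how it was selected, and without it 3 of 45 were higher. Ugt1a9 stood at 36.0, 34.8 and 40.9 RPKM, above every C0 library (1.70 ± 0.30, adjusted p = 1.48e-05), and the change was 0.92 against C0 replicates 1 to 3 (adjusted p = 0.0109) and 2.90 against replicates 7 to 9. Gsta1 rose by 1.83 ± 0.61, a call that was lost without X1W replicate 1 (1.56) or replicate 3 (1.46), and Ugt1a5 by 0.97 ± 0.38, which was lost without any 1 of 4 C0 libraries (replicates 1, 7, 8 and 9) or of X1W replicates 1 and 3. Gstp2 fell by 0.82 ± 0.23 (537, 673 and 392 RPKM against 691 to 1391) and Gstp1 by 0.78 ± 0.21 (1049, 1253 and 710 RPKM against 1416 to 2154), and neither fall was called without X1W replicate 3 (−0.62 and −0.55), when 2 members in all were called. In X1W, 4 of 5 erythroid markers (summed level 120.7 to 135.6 RPKM, and 38.0 to 142.1 in C0), 3 of 8 macrophage markers (39.6 to 87.3, and 9.71 to 152.9) and 2 of 8 stellate markers (58.4 to 90.4, and 55.7 to 91.6) were called higher and 2 of 6 B and T cell markers lower than in C0, and their part was not tested. At 4 weeks, 0 members were called by limma in either direction (0.0325% of all genes higher and 0.0325% lower), and also 0 at an unadjusted p below 0.05. With 2 livers in each of X4W and C4W, only large differences could be detected.

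**Figure D5:**
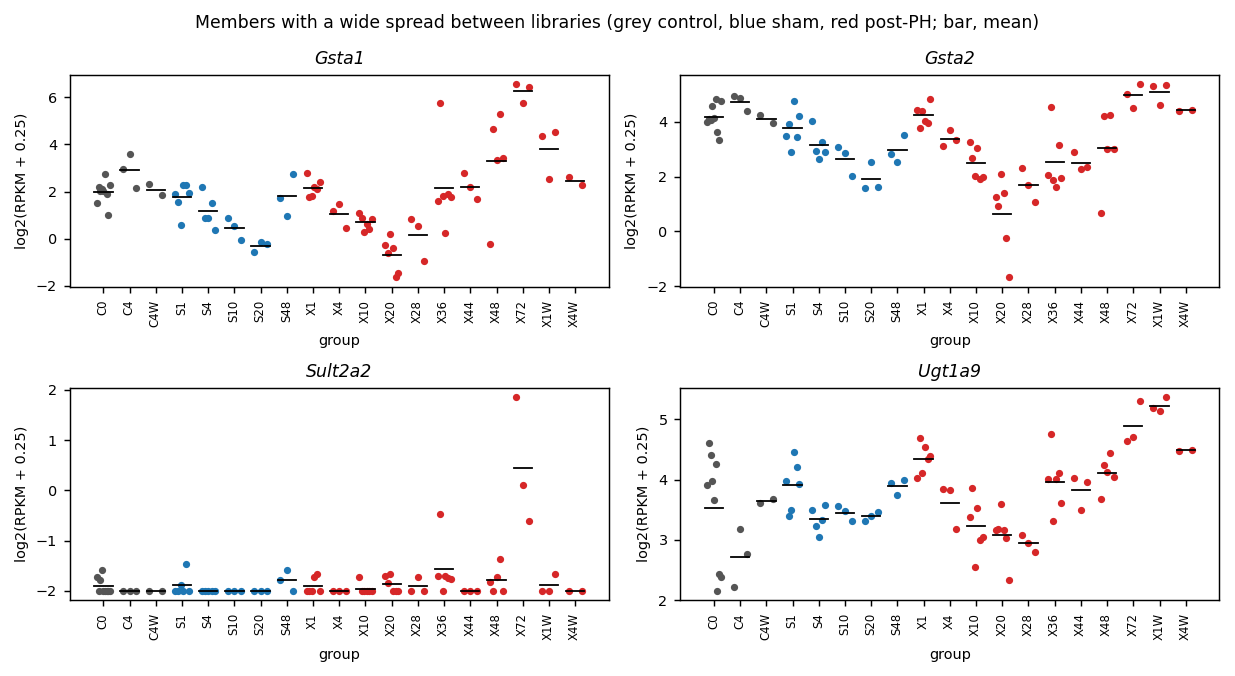
Levels of Gsta1, Gsta2, Sult2a2 and Ugt1a9, as log2(RPKM + 0.25) on the vertical axis, in every library (points) of 19 groups (horizontal axis), with group means as bars. Gsta1 spans 0.608 to 39.3 RPKM within X48, one X36 library (54.1 RPKM) stands far above the other X36 libraries, and the last 3 C0 points of Ugt1a9 lie below the first 6.

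Against the unoperated ZT6 livers, the first hours after either surgery held many calls. In S4, 4 members were higher than in C4 (12.2% of all genes) and 20 lower (31.0%), and the median change over all genes was −0.22. With libraries scaled to the same median the calls were 6 higher and 17 lower, with 48.5% of all called genes higher in place of 28.3%. Gstt2 fell from 53.8, 38.9 and 43.4 RPKM in C4 to between 7.15 and 11.6 in S4 (−2.20 ± 0.24, adjusted p = 7.05e-12), and Sult1c2 by 2.06 ± 0.30. Gstm1 (−1.44 ± 0.26), Gstm4 (−1.36 ± 0.23), Gsta4 (−1.33 ± 0.38), Ugt2b34 (−1.08 ± 0.18), Gsto1 (−1.02 ± 0.13) and Gsta3 (−1.02 ± 0.19) fell as well. The 4 rises were those of Sult5a1 (1.18 ± 0.34), Sult1d1 (1.12 ± 0.26), Sult1a1 (0.60 ± 0.19) and, at a low level, Sult1e1. With libraries scaled to the same median, Ugt1a9 (0.83) and Gstm2-ps1 (1.14) were called higher beside these 4. The change of Sult1a1 passed under 0.5 without S4 replicate 1 (0.48). Markers of other cells were lower in S4 as well, namely 7 of 8 stellate markers (summed level 34.99 to 55.1 RPKM in S4 and 79.2 to 91.7 in C4), 4 of 5 erythroid markers (34.2 to 64.7 and 91.7 to 151.5), 4 of 8 endothelial markers (18.5 to 33.7 and 36.3 to 39.5), 4 of 6 B and T cell markers (0.334 to 1.26 and 2.88 to 5.23) and 3 of 8 macrophage markers (11.4 to 30.4 and 30.5 to 41.4). Of 7 neutrophil markers, 3 were higher (6.88 to 42.5 and 1.07 to 5.13 RPKM), and of 11 hepatocyte markers 3 were higher and 4 lower. Their part in the members' changes was not tested.

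In X4, 6 members were higher than in C4 (11.7% of all genes) and 19 lower (33.9%), and the median over all genes was −0.26. With libraries scaled to the same median the X4 calls were 12 higher and 11 lower, with 47.4% of all called genes higher in place of 25.6%. The excess of falls in X4 thus depended on the scaling. Gstt2 stood at 11.4, 11.6 and 11.0 RPKM in X4 (−1.96 ± 0.26), and Sult1c2 fell by 2.34 ± 0.34. The 6 rises in X4 were of Sult and Ugt1a genes. Sult5a1 (0.955 ± 0.38), Ugt1a9 (0.90 ± 0.37), Ugt1a1 (0.56 ± 0.23) and Sult1a1 (0.54 ± 0.21) rose, and Sult1e1 and Ugt1a10 at low levels. The calls of Sult5a1, Ugt1a9, Ugt1a1 and Sult1a1 were each lost when certain single libraries were left out. Of the markers, 6 of 8 stellate, 5 of 8 macrophage, 4 of 8 endothelial, 4 of 5 erythroid, 4 of 6 cholangiocyte and 4 of 6 B and T cell genes were lower in X4 than in C4, and their part was not tested. In X28, 28 h after PH and again at ZT6, 3 members were higher (14.4% of all genes) and 17 lower (18.3%). Sult1c2 fell by 2.80 ± 0.34, Gsta2 fell by 3.05 ± 0.61 (4.71, 2.99 and 1.83 RPKM against 30.6, 29.0 and 20.8), Gsta1 by 2.75 ± 0.75, Gsta4 by 2.11 ± 0.43, Gsta3 by 1.68 ± 0.21 and Ugt2b1 by 1.55 ± 0.28. Sult1a1 (593, 680 and 499 RPKM against 188, 166 and 199, a change of 1.67 ± 0.21) and Gstm2 (1.27 ± 0.34) rose at that time, as did Sult1e1 at a low level, whose call was lost without any 1 of the C4 libraries or of X28 replicates 2 and 3. In X28, 5 of 6 B and T cell, 3 of 8 stellate and 2 of 8 endothelial markers were lower than in C4, and their part was not tested.

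Between the 2 unoperated groups C4 and C0, which differ by 4 h of the day, 2 members were higher in C4 (5.81% of all genes) and 1 lower (2.08%). Gstt2 was higher by 1.13 ± 0.22 (adjusted p = 3.11e-04) and Gstm1 by 0.69 ± 0.24 (adjusted p = 0.0402), while Ugt1a10, near the level of −1.5, was lower. The call of Gstm1 was lost without any 1 of the C4 libraries or of C0 replicates 1, 2, 4, 5 and 6 (0.57 to 0.77). With libraries scaled to the same median, 1 member was higher and 5 lower, with 48% of all called genes higher in place of 73.6%. The result turned on the C0 livers used. Against C0 replicates 1 to 6, C4 had 14 members called, 11 of them lower, and against C0 replicates 7 to 9 it had 1. Leaving out C0 replicate 7, 8 or 9 gave 7, 9 and 9 calls, and leaving out C4 replicate 2 gave 1. The C0 livers themselves differed between these sets, with mean log2 RPKM of 8.16, 8.11 and 7.31 for Ugt2b1 in replicates 1 to 3, 4 to 6 and 7 to 9, and of 9.59, 9.62 and 10.34 for Gstp2. Beside this, 3 of 5 erythroid and 3 of 6 B and T cell markers were higher in C4 than in C0, and their part was not tested.

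Donor supply and related enzymes were read from lists of genes. At 48 h against sham, where 24.5% of all genes were higher and 2.69% lower, 2 of 5 genes of UDP-glucuronic acid supply were higher, Ugdh, which oxidises UDP-glucose (0.53 ± 0.20), and Slc35b1 (0.95 ± 0.17), and 0 were lower. Of 8 genes on the list for PAPS supply, 2 were higher, the PAPS synthase Papss1 (0.62 ± 0.21) and Impad1 (0.67 ± 0.13), which does not make PAPS. Of 13 genes of glutathione synthesis and recycling, 3 were higher, glutathione synthetase Gss (1.42 ± 0.17), glutathione reductase Gsr (0.80 ± 0.13) and Ggct (0.63 ± 0.13), and 1 was lower, the glutathione-degrading Chac1 (−1.55 ± 0.43). The shares higher in the PAPS and glutathione lists were near that of all genes. The medians of these lists were 0.38, 0.29 and 0.08, beside 0.27 over all genes.

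At 48 h, 24.5% of all genes were higher and 2.69% lower. Of 16 other conjugating enzymes, 2 were higher at 48 h, Tpmt (0.66 ± 0.15) and Nat2 (0.53 ± 0.14). The 3 lower ones were the methyltransferases Inmt (−3.05 ± 0.55) and Gnmt (−0.93 ± 0.19) and Nat8 (−0.99 ± 0.28). Of 5 microsomal glutathione transferases 1 was higher, Ltc4s, and of 6 deconjugating enzymes 1, the sulfatase Arsb (0.87 ± 0.15). The list of 18 xenobiotic-sensing regulators also holds Por, the P450 reductase, which is not a sensor. Of these 18 genes 2 were higher, Nfe2l2, which acts through the antioxidant response element (0.81 ± 0.16), and its inhibitor Keap1 (0.55 ± 0.10). By limma 0 were lower, and the share higher was below that of all genes. At 20 h, where 4.49% of all genes were higher and 2.61% lower, 1 regulator was higher, the aryl hydrocarbon receptor Ahr (1.11 ± 0.25). Gss (0.60 ± 0.16) and Impad1 (0.52 ± 0.13) were higher too, and Gclc, a subunit of the first enzyme of glutathione synthesis, was lower (−0.70 ± 0.24). At 72 h against C0, where 26.6% of all genes were higher and 6.59% lower, 7 of the 18 genes of that list were higher. Among the 7 were Ahr (1.04 ± 0.24), Nfe2l2 (0.74 ± 0.15) and the reductase Por (1.16 ± 0.23). One gene of the list was lower, the constitutive androstane receptor Nr1i3 (−0.86 ± 0.31). The supply lists had 3 of 5 (UDP-glucuronic acid), 3 of 8 (PAPS) and 5 of 13 (glutathione) genes higher, with Ugdh at 0.75 ± 0.18, Papss2 at 0.78 ± 0.18 and Gss at 1.31 ± 0.15, and 2 glutathione genes lower. Of the other conjugating enzymes 4 were higher, led by Nnmt (2.53 ± 0.34), and 5 lower, led by Inmt (−2.09 ± 0.50). The xenobiotic receptor Nr1i2 was higher after PH than after sham at 4 h (0.77 ± 0.21) and 10 h (0.62 ± 0.20).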

How the data were processed

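RNA-Seq values of 80 libraries in 19 groups were used, out of 87 labelled samples. The 7 samples without a column (3 X4, 3 X60 and 1 X4W) were not analysed here, and 4 of the 84 value columns match no labelled sample and were not used. The authors mapped 100-base reads to mm9 with TopHat2 2.0.13 and Bowtie2 (SAMtools 0.1.19), counted them per Ensembl gene on the transcribed strand with featureCounts, shared multi-mapping reads among their positions, and deposited log2 RPKM values, with genes without reads at −14.29. 

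The fit was made with limma 3.58.1 (R 4.3.3) after adding 0.25 to each RPKM and taking log2 (1 coefficient for each of 19 groups, trended prior variance), with Benjamini-Hochberg adjustment over 15396 genes. The fit was also run on simulated data with known changes, drawn with independent normal noise and without differences between periods. Changes were placed only in genes away from the lowest levels, so that run does not cover periods or genes near 0. P values measure the spread between individual livers within groups, pooled over all 19 groups. In groups drawn from several periods this spread also holds differences between periods, for which the fit has no term. Replicate numbers did not pair libraries: in no comparison did every same-numbered pair correlate above 0.1. Within groups 160 pairs of libraries correlated between 0.966 and 0.995. Depth was estimated from RPKM times exon length, since read totals were not used here, so no counting interval is given.

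Members were named by rule: in each comparison the 10 largest rises and 10 largest falls among calls whose level exceeded a log2 RPKM of 0 in either group, and the leader of each family. Other genes named were the 2 members nearest to the level on either side and called genes of the lists, and members outside the rule were named where a count was small. Members, lists and rules were chosen with earlier results of these data known. Alternatives were other pseudocounts, filters, scaling, variance settings, blocks, C0 subsets and leaving out each library, with X20 replicates 1 to 4 alone added after seeing the data. Positions and shared stretches came from GENCODE vM1 with Python 3.11.15, numpy 2.4.6 and pandas 2.3.3, and figures from matplotlib 3.10.9.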

Additional observations from a re-analysis of the deposited data

Results flagged for a closer look

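In the 255 combinations of 32 named members and 8 groups of 4 to 10 libraries, 16 held 1 library that stood apart from its group by Dixon's criterion, which chance gives in about 1 of 20 groups. Of these, 7 were in X36 replicate 2 and 3 in X48 replicate 1. All values are log2 RPKM, with the nearest other library of the group after each. X36 replicate 2 was high in Gsta1 (5.76, nearest 1.78), Gstp1 (10.44, nearest 9.87), Gsto1 (4.91, nearest 4.58), Ugt2b34 (7.34, nearest 6.72), Ugt2b35 (6.40, nearest 5.85) and Sult2a2 (−1.07, nearest −4.16), and low in Ugt1a5 (1.34, nearest 2.39). X36 entered no comparison. X48 replicate 1 was low in Ugt2b34 (6.62, nearest 7.07), Ugt2b35 (5.67, nearest 6.47) and Ugt2b5 (7.81, nearest 8.36), and X48 replicate 4 was high in Gstm2 (6.82, nearest 6.39).

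The remaining libraries that stood apart were X20 replicate 3 in Ugt1a1 (5.23, nearest 4.83), X10 replicate 3 in Sult1b1 (2.503, nearest 1.86), S4 replicate 4 in Ugt3a1 (4.67, nearest 4.56), S1 replicate 5 in Sult2a2 (−3.17, nearest −5.70) and X10 replicate 1 in Sult2a2 (−4.31, with the other X10 libraries listed at 0). Sult2a2 held at most 4.03 estimated reads in any library outside X72 and X36. The difference between PH and sham changed from 20 h to 48 h for Sult1c2 (1.43 on the log2 scale, limma adjusted p = 0.0127), with values of single libraries and settings given above.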

How the results depend on the processing

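Of 105 changes of named members, 67 kept their direction and call under every alternative run and 77 were called whichever single library was left out. One changed direction: Ugt1a9 in X48 against C0, at 0.57, was −0.20 against C0 replicates 1 to 3 and −0.030 against C0 replicates 1 to 6. It was −0.074 with the replicate block and −0.029 with a block of triplicates. Both blocks take C0 replicates 7 to 9 out of the C0 level, so they are not separate from the fit with replicates 1 to 6. C0 replicates 7 to 9 held the lowest Ugt1a9 values. In X48 against S48, Gstm3, Gstm2, Sult1a1, Ugt2a3 and Gsta3 were called under every alternative run. For Sult1e1 and other members near 0 the size of the change followed the pseudocount.

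Counts of called members moved by over 1.5 times as follows. With libraries scaled to the same median, X48 against S48 had 19 in place of 11, X72 against C0 28 in place of 17, and C4 against C0 6 in place of 3. C4 against C0 had 13 against C0 replicates 1 to 3, 14 against replicates 1 to 6 or 4 to 6, and 1 against replicates 7 to 9. X1W against C0, at 6, had 2 against C0 replicates 1 to 3 and 14 against replicates 7 to 9, and S48 against C0, at 9, had 14 against replicates 7 to 9. X10 against S10 and X4 against S4, at 2 each, had 1 each when no filter on low values was used, which tests more genes. The change of the difference between 20 h and 48 h, at 1, had 2 with the stricter filter or with the groups of that comparison alone. The cause was not tested.

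Leaving out 1 library at a time gave 8 to 12 calls for X48 against S48, 4 to 8 for X20 against S20, 1 to 4 for X10 against S10, 1 to 2 for X4 against S4, 0 for X1 against S1 and X4W against C4W, 17 to 20 for X72 against C0, 20 to 24 for X48 against C0, 7 to 9 for S48 against C0, 2 to 8 for X1W against C0, 1 to 9 for C4 against C0, 23 to 26 for S4 against C4, 19 to 24 for X4 against C4, 18 to 19 for X28 against C4 and 0 to 6 for the change from 20 h to 48 h. X10 against S10 had 1 without S10 replicate 2 or X10 replicate 1 and 4 without X10 replicate 2 or 3, and X4 against S4 had 1 without any 1 of S4 replicates 1 to 3 or of the X4 libraries.

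The numbers of the replicates did not pair the libraries, with correlations of the deviations of same-numbered libraries from −0.19 to 0.27. With the replicate block, C4 against C0 had 14 calls, X48 against C0 25, X72 against C0 21, X28 against C4 22, X4 against C4 23, S4 against C4 26, X10 against S10 3 and X1W against C0 4, and the other 7 counts were equal to those without it. Groups of 2 or 3 livers and estimated reads near 0 in Sult2a1, Sult2a2, Sult2a5, Sult4a1 and Sult1e1 limit what could be detected.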
